A study of Mus musculus with 6 samples.

Results

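The MHC class II genes studied here are 10 listed mouse genes, matched by symbol among 37315 genes of the abundance table, and all 10 also have allele counts among 19402 genes. They are Ciita (the class II transactivator), the surface chains H2-Aa, H2-Ab1 and H2-Eb1, the invariant chain Cd74, the H2-DM chains H2-DMa, H2-DMb1 and H2-DMb2, and the H2-DO chains H2-Oa and H2-Ob. They were chosen by name with their TPM and maternal shares in these libraries known, so their abundance and their allele use are given below as descriptions, without p-values. RNA-seq came from 3 immortalised B-cell lines of F1 mice from a cross of 129S1/SvImJ with CAST/EiJ. Each line is a single clone. Abl.3 is labelled male and the other lines female, and the labels give no age. All cells had the same control treatment, growth medium with 1% DMSO, the solvent used as control, were taken on day 2 and were enriched for live cells on a Histopaque gradient. Every line has 2 libraries, which are library preparation replicates. Errors and p-values below therefore measure only the spread between libraries of a clone and not between animals or independent clones. Each standard error (SE) from a fit uses a spread shared by the lines and moderated across genes. It is therefore not the spread of a line's own libraries.

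Class II molecules present peptides taken up from outside the cell to CD4+ T cells, and an alpha and a beta chain form each surface molecule. Cd74 holds new class II dimers together and fills their groove, H2-DM exchanges its last fragment for peptide, and H2-DO restrains H2-DM. Ciita does not bind DNA itself: it docks on a complex of RFX, CREB and NF-Y proteins that sits on the X and Y boxes of class II promoters. Early B-lineage cells of the mouse are known for little surface class II, which rises as they mature.

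Total allele counts per library ran from 18362319 to 26881211, and the depth behind the abundance values, in TPM (a measure per transcript length, relative to all transcripts of a library), is unknown. B-lineage markers (12 genes) summed to between 12642 and 14001 TPM in every library, with at least 11 of 12 at a mean of 1 TPM or more in each line, among them the surrogate light chain genes Vpreb1 and Igll1. Single markers differed between lines: Cd22 stood at 23.3 and 21.3 TPM in Abl.2, 20.6 and 18.3 TPM in Abl.3, and 100.03 and 84.7 TPM in Abl.4. The recombinase gene Rag1 was highest in Abl.2 (22.0 and 24.6 TPM) and lowest in Abl.3 (4.39 and 5.34 TPM), with 9.84 and 12.9 TPM in Abl.4, and Ms4a1, which encodes CD20, reached 6.19 and 6.09 TPM in Abl.3 against at most 0.37 TPM elsewhere. T-cell markers (5 genes) summed to at most 0.07 TPM and fibroblast markers (3 genes) to at most 0.03 TPM. Myeloid and dendritic markers (9 genes) summed to between 161 and 197 TPM in Abl.2, against 80.8 to 103 TPM in Abl.3 and 81.4 to 93.3 TPM in Abl.4. The lysozyme gene Lyz2 made up nearly all of that sum (158 and 193 TPM in Abl.2), and the defining markers Adgre1 and Clec9a were listed at 0 in all libraries. Itgam, an integrin gene, went the other way, with 0.51 and 0.35 TPM in Abl.2, 0.72 and 0.97 TPM in Abl.3, and 6.89 and 6.74 TPM in Abl.4, the line with most Ciita and H2-Ab1. Cd68 was highest in Abl.3, at 5.91 and 6.02 TPM against 2.44 to 3.48 TPM in the other lines, and Itgax, Csf1r, Zbtb46 and Xcr1 reached at most 0.44 TPM. The part of these markers in the differences below was not tested. In bulk RNA, fewer cells with a transcript and less of it per cell cannot be told apart.

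Promoter sequence was taken from RefSeq (build GRCm38.p6), where 7 of the 10 members had an entry. The search covered the 250 bases before each start for the core of the X box, AGNAAC, for the Y box ATTGG (an NF-Y site), and for the pair of both with 25 to 31 bases between, all on both strands. Overlaps between motifs were allowed. Only these exact letters were searched, so a variant of either box would be missed. H2-Aa, H2-Eb1 and H2-Ob are shown because they carry the contrast described next: the first pair of genes was nearly silent in Abl.2 and H2-Ob was not. Each line is the 130 bases that end just before the gene as annotated by RefSeq and by the authors, 5′ to 3′ on the gene's strand. Capitals mark the X box core and the Y box of the pair, and in H2-Aa the Y box alone. The windows are chr17:34287828-34287957 on the minus strand, chr17:34305737-34305866 on the plus strand and chr17:34238773-34238902 on the plus strand, in that order.
H2-Aa: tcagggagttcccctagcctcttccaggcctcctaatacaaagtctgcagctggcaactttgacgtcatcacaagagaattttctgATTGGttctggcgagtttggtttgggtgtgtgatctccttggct
H2-Eb1: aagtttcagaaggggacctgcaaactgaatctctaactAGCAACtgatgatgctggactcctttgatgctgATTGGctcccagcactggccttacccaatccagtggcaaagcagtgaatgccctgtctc
H2-Ob: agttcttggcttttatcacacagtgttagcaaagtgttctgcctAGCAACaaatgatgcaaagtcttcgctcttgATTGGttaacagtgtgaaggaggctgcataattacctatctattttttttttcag
Of 32851 promoters of that length, none from the chromosome of Cd74, the pair occurred in 110 (0.335%). The Y box letters alone occurred in 33.8% and the X box letters alone in 42.3%. Of the members with an entry, H2-Oa, H2-DMb1, H2-Ob and H2-Eb1 held the pair, with 28, 28, 25 and 27 bases between the boxes. No pair in these exact letters lay in the searched bases of H2-Aa, H2-DMa and H2-DMb2, and whether they hold a variant of it was not tested. The starts used were those of RefSeq and can differ from the authors' coordinates given below. For H2-DMa the searched bases ended at 34122831 and 34125517, upstream of the authors' gene, and those just before that gene were not searched. For H2-DMb2 they lay inside the authors' gene (34144999 to 34145248), as did 119 of the 250 for H2-DMb1 and 39 for H2-Oa. The neighbouring class II gene H2-Eb2 held the pair too, with 27 bases between. Genes with the pair were thus found both among those nearly absent from Abl.2 (H2-Eb1) and among those present in every line (H2-Oa, H2-Ob, H2-DMb1). A match of letters is a description and not a bound site.

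Ciita was low in every library and lowest in Abl.2. It lies on chromosome 16 (10480059 to 10528418 in the authors' tables). Its level was 0.12 and 0.08 TPM in Abl.2, 1.3 and 0.85 TPM in Abl.3, and 2.27 and 2.56 TPM in Abl.4. No library of one line overlapped another line. On the log2(TPM + 1) scale, which compresses low values, the difference was -0.91 ± 0.20 (SE, 2 libraries a line) for Abl.2 minus Abl.3, -1.63 ± 0.20 for Abl.2 minus Abl.4 and -0.73 ± 0.20 for Abl.3 minus Abl.4. With a pseudocount of 0.1 in place of 1 the differences of Ciita were -2.53, -3.66 and -1.12. The opposite-strand gene Dexi overlaps Ciita in GENCODE, the library kit does not mark strand, and their reads could not be separated where they overlap.

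The surface chain genes followed the same split, and H2-Ab1 did so most steeply. H2-Ab1, the beta chain of I-A (chromosome 17, 34263209 to 34269418), stood at 0.37 and 0.71 TPM in Abl.2, 160.0 and 134 TPM in Abl.3, and 258 and 231 TPM in Abl.4. Abl.2 was near 0 and Abl.4 lay above Abl.3 in both libraries. The differences in log2(TPM + 1) were -6.59 ± 0.14 (SE) for Abl.2 minus Abl.3, -7.32 ± 0.14 for Abl.2 minus Abl.4 and -0.73 ± 0.14 for Abl.3 minus Abl.4. With a pseudocount of 0.1 they were -7.89, -8.63 and -0.74, so the sizes against Abl.2 depend on the pseudocount. H2-Aa, the alpha chain that pairs with it (chromosome 17, 34282744 to 34287827), was listed at 0 and 0.46 TPM in Abl.2. In Abl.3 its level was 12.1 and 14.4 TPM and in Abl.4 it was 17.2 and 15.7 TPM. Abl.3 and Abl.4 did not overlap for H2-Aa, but their difference of -0.30 ± 0.21 in log2(TPM + 1) was small against its error. The alpha chain was therefore present at far lower TPM than its partner in both lines that had them.

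H2-Eb1, the beta chain of I-E (chromosome 17, 34305877 to 34316199), was listed at 0 and 0.12 TPM in Abl.2. It stood at 9.78 and 10.7 TPM in Abl.3 and at 4.88 and 5.85 TPM in Abl.4. Unlike H2-Ab1 it was higher in Abl.3, by 0.82 ± 0.16 in log2(TPM + 1). The gene listed as H2-Ea-ps, the only entry for the I-E alpha chain, had the same order: 0 TPM in both Abl.2 libraries, 7.52 and 8.51 TPM in Abl.3, 3.49 and 3.33 TPM in Abl.4. An antisense gene, Gm20513, overlaps H2-Eb1 in GENCODE, with the same limit on strand as for Ciita.

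Allele counts, which are separate columns of counts at SNP positions, gave the same picture of near absence from Abl.2. Of H2-Ab1 there were 158 and 118 counts in Abl.2, 22724 and 18953 in Abl.3, and 33996 and 32401 in Abl.4. Of H2-Aa there were 0 and 76 counts in Abl.2, 1539 and 1660 in Abl.3, and 2003 and 2056 in Abl.4. H2-Eb1 had 0 and 4 counts in Abl.2, 188 and 196 in Abl.3, and 87 and 150 in Abl.4. The Abl.2 library with H2-Aa counts (replicate 2) is the deepest of the 6. For Ciita the counts were 39 and 19 in Abl.2, 206 and 161 in Abl.3, and 373 and 405 in Abl.4. Each gene was thus lower in both Abl.2 libraries than in any other library.

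**Figure D1:**
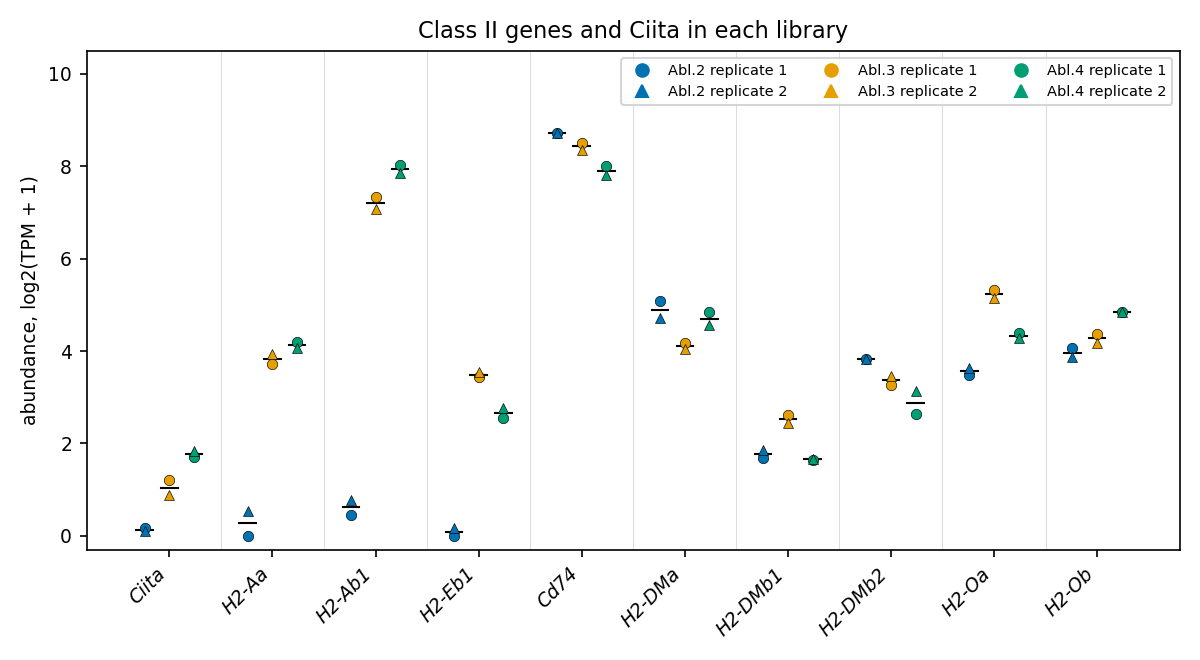
Abundance of the 10 genes in each library as log2(TPM + 1), coloured by line, with circles for replicate 1, triangles for replicate 2 and a black bar at the mean of both. Ciita, H2-Aa, H2-Ab1 and H2-Eb1 lie at the floor in Abl.2, while Cd74 and the H2-DM and H2-DO chains are present in all 3 lines.

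The invariant chain did not share that split. Cd74 (chromosome 18, 60803848 to 60812646) stood at 418 and 422 TPM in Abl.2, 363 and 328 TPM in Abl.3, and 255 and 224 TPM in Abl.4. It was highest in the line with the least Ciita, and the libraries of the lines did not overlap. In log2(TPM + 1), Abl.2 exceeded Abl.3 by 0.28 ± 0.09 (SE), Abl.2 exceeded Abl.4 by 0.81 ± 0.09 and Abl.3 exceeded Abl.4 by 0.53 ± 0.09. A microRNA gene, Mir5107, lies inside Cd74.

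The H2-DM chains, which catalyse peptide exchange, were present in all lines at moderate levels. The alpha chain H2-DMa (chromosome 17, 34135182 to 34139101) stood at 32.8 and 25.2 TPM in Abl.2, 16.9 and 15.5 TPM in Abl.3, and 27.8 and 22.5 TPM in Abl.4. Abl.3 was lowest, and Abl.2 and Abl.4 overlapped. The beta chain H2-DMb1 (34153072 to 34160230) had 2.21 and 2.61 TPM in Abl.2, 5.09 and 4.44 TPM in Abl.3, and 2.13 and 2.19 TPM in Abl.4, so that Abl.3 stood out as high. Its paralog H2-DMb2 (34143307 to 34151553) had 13.1 and 13.1 TPM in Abl.2, 8.66 and 9.96 TPM in Abl.3, and 5.2 and 7.81 TPM in Abl.4, highest in Abl.2. H2-DMb2 stood above H2-DMb1 in every library. Of all 50-base windows of H2-DMb1 transcripts, 22.7% also occur in H2-DMb2 transcripts, and how the authors assigned such reads is not given in the sources used here, so values of the paralogs are uncertain. Neither H2-Ab1, H2-Eb1, Cd74, Ciita, H2-DMa, H2-Oa nor H2-Ob shared such a window with another gene, and H2-Aa shared 0.488%.

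Both H2-DO chains, which restrain H2-DM and are typical of B cells, were lowest in Abl.2 without being absent. H2-Oa (chromosome 17, 34092340 to 34095234) had 10.2 and 11.4 TPM in Abl.2, 38.8 and 34.6 TPM in Abl.3, and 20.1 and 18.3 TPM in Abl.4. The lines did not overlap, and Abl.3 exceeded Abl.2 most: the difference of Abl.2 minus Abl.3 was -1.68 ± 0.11 (SE) in log2(TPM + 1). H2-Ob (34238903 to 34245907) had 15.7 and 13.6 TPM in Abl.2, 19.8 and 17.1 TPM in Abl.3, and 27.9 and 27.8 TPM in Abl.4. Here Abl.4 was highest. An antisense gene, BC051537, overlaps H2-Oa.

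Within a line, the order of TPM also changed. In Abl.2 Cd74 led at 420.0 ± 2.77 TPM (mean ± SD, n = 2), followed by H2-DMa at 29.0 ± 5.38 TPM, and H2-Ab1 came only after all H2-DM and H2-DO chains at 0.54 ± 0.24 TPM. H2-Ab1 and H2-Aa overlapped there, as did Ciita and H2-Eb1. In Abl.3 Cd74 at 346 TPM stood above H2-Ab1 at 147 ± 18.3 TPM, then came H2-Oa at 36.7 ± 2.96 TPM, and H2-Eb1 and H2-DMb2 overlapped. In Abl.4 H2-Ab1 at 245 ± 19.4 TPM and Cd74 at 239 ± 22.0 TPM overlapped, as did H2-DMb2 and H2-Eb1.

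The fit over 11003 genes called 8 of 10 members for Abl.2 minus Abl.3, where 39.8% of all tested genes were called. It called 8 of 10 for Abl.2 minus Abl.4 (all genes 33.5%) and 8 of 10 for Abl.3 minus Abl.4 (all genes 38.1%), by limma with Benjamini-Hochberg adjusted p below 0.05. In Abl.2 minus Abl.3, 2 members were higher (all genes 25.9%) and 6 lower (all genes 14%). In Abl.2 minus Abl.4, 2 were higher (all genes 15%) and 6 lower (all genes 18.4%), and in Abl.3 minus Abl.4, 4 were higher (all genes 11.3%) and 4 lower (all genes 26.8%). Nothing is read from these shares, since the members were chosen with the values known, and both comparisons with Abl.2 share its libraries. Ciita, H2-Aa, H2-Ab1 and H2-Eb1 also had means below 1 TPM in Abl.2. They passed the filter of a mean of 1 TPM over all libraries only through Abl.3 and Abl.4. The members' median difference was -0.83 in log2(TPM + 1) for each comparison with Abl.2 and 0.09 for Abl.3 minus Abl.4, beside 0.10, -0.03 and -0.15 over all tested genes. Scaling shifts the background: among all called genes, the share higher in the first line was 65.0%, 44.9% and 29.8%, and became 51.4%, 52.8% and 52.0% after quantile normalisation, which moved the median of all genes to -0.0028, 0.03 and 0.03. With summed allele counts scaled by TMM it was 50.7%, 46.2% and 45.8%. No member changed direction in abundance under these scalings. Fewer members were called in Abl.2 minus Abl.3 without Abl.2 replicate 1 (4) or Abl.3 replicate 1 (5), and in Abl.3 minus Abl.4 without Abl.3 replicate 2 (3) or Abl.4 replicate 1 (5).

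Whether both parental copies of the genes were used was read from the maternal share, the maternal counts divided by the counts of both alleles. Which strain was the mother is not used here, and intervals are 95% Wilson intervals. They hold counting error alone, because PCR copies were not marked by molecular identifiers. Shares are given for libraries with at least 20 counts. Log2 ratios of maternal to paternal counts come from edgeR's quasi-likelihood fit over all genes with that coverage in each of the 6 libraries, 8702 genes, which kept 7 of 10 members and left out H2-Aa, H2-Eb1 and Ciita because of Abl.2. A second fit on Abl.3 and Abl.4 alone, added after seeing the data, covered 8889 genes and all 10 members. For the members the fits supply a ratio and its SE and no p, because their shares were known when they were chosen.

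H2-Ab1 came almost wholly from the maternal allele in both lines that expressed it. Its maternal share was 0.948 and 0.934 in Abl.3 and 0.985 and 0.985 in Abl.4. In allelic CPM (counts scaled to the allele counts of the whole library), the maternal allele gave 1084 and 964 in Abl.3 and 1673 and 1596 in Abl.4, and the paternal allele gave 59.2 and 67.9 in Abl.3 and 25.99 and 24.04 in Abl.4. Abl.4 thus had more from the maternal and less from the paternal allele than Abl.3 in both libraries. The log2 ratio of maternal to paternal counts was 4.01 ± 0.18 (SE) in Abl.3 and 6.03 ± 0.20 in Abl.4, a difference of -2.02 ± 0.25 for Abl.3 minus Abl.4. That SE depended on whether Abl.2 was in the fit: on Abl.3 and Abl.4 alone the difference was -2.02 ± 0.10.

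The few H2-Ab1 counts of Abl.2 were split inconsistently. The maternal share was 0.386 (interval 0.314 to 0.464) in replicate 1 and 0.847 (0.772 to 0.901) in replicate 2, from 61 maternal and 97 paternal counts and from 100 maternal and 18 paternal counts. The intervals of both libraries do not overlap, and they fall on opposite sides of 0.5. The log2 ratio was 0.50 ± 0.49 (SE), became 2.46 without replicate 1 and became -0.67 without replicate 2. The SE uses a spread shared by the lines and is small beside the gap between those values. In maternal output Abl.2 gave 2.69 and 3.72 CPM and in paternal output 4.27 and 0.67 CPM, so both alleles were low beside Abl.3 and Abl.4. Against Abl.3 and Abl.4 the log2 ratio of Abl.2 was lower by -3.51 ± 0.57 and -5.53 ± 0.63. Without Abl.2 replicate 1 these values were -1.55 and -3.57. The authors' deposited table gives an H2-Ab1 allelic imbalance of 0.58 in Abl.2, with limits of 0.34 and 0.81, and of 0.94 and 0.98 in Abl.3 and Abl.4.

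The alpha chain partner of H2-Ab1 was not skewed in this way. H2-Aa had a maternal share of 0.413 and 0.505 in Abl.3 and of 0.443 and 0.514 in Abl.4. In each line replicate 1 lay below 0.5 and replicate 2 just above. On Abl.3 and Abl.4 alone, the log2 ratio was -0.24 ± 0.14 (SE) and -0.12 ± 0.14. The only Abl.2 library with counts, replicate 2, gave 55 maternal and 21 paternal counts, a share of 0.724 (interval 0.614 to 0.812).

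H2-Eb1 had more paternal counts in Abl.3 and no common direction in Abl.4. Its maternal share was 0.378 in both Abl.3 libraries, and 0.609 and 0.420 in Abl.4, where the libraries fell on opposite sides of 0.5. The log2 ratios were -0.72 ± 0.32 and 0.04 ± 0.34 (SE, fit on Abl.3 and Abl.4 alone). At 87 to 196 counts a library, these ratios are less precise than those of H2-Ab1.

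Ciita ran the other way from H2-Ab1, with most counts from the paternal allele. Its maternal share was 0.194 and 0.037 in Abl.3, and 0.244 and 0.188 in Abl.4. Paternal output was 8.35 and 8.44 CPM in Abl.3 and 14.1 and 16.4 CPM in Abl.4, and maternal output was 2.01 and 0.327 CPM in Abl.3 and 4.55 and 3.80 CPM in Abl.4. On Abl.3 and Abl.4 alone, the log2 ratio was -2.92 ± 0.44 (SE) in Abl.3 and -1.87 ± 0.36 in Abl.4, a difference of -1.05 ± 0.58. Abl.2 replicate 1, with 19 maternal and 20 paternal counts, had a share of 0.487 (interval 0.339 to 0.638). Abl.2 replicate 2, with 13 maternal and 6 paternal counts, lay just outside the threshold. The limit on strand holds for these shares too. Dexi, which overlaps Ciita, had mean maternal shares of 0.518, 0.460 and 0.511 in Abl.2, Abl.3 and Abl.4. Its part in the Ciita counts was not tested. Of 6 genes within 200 kb of Ciita, 4 were tested and 2 were called in Abl.3 (all genes 45.1%) and 2 in Abl.4 (all genes 39.9%) by edgeR, all toward the maternal allele.

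**Figure D2:**
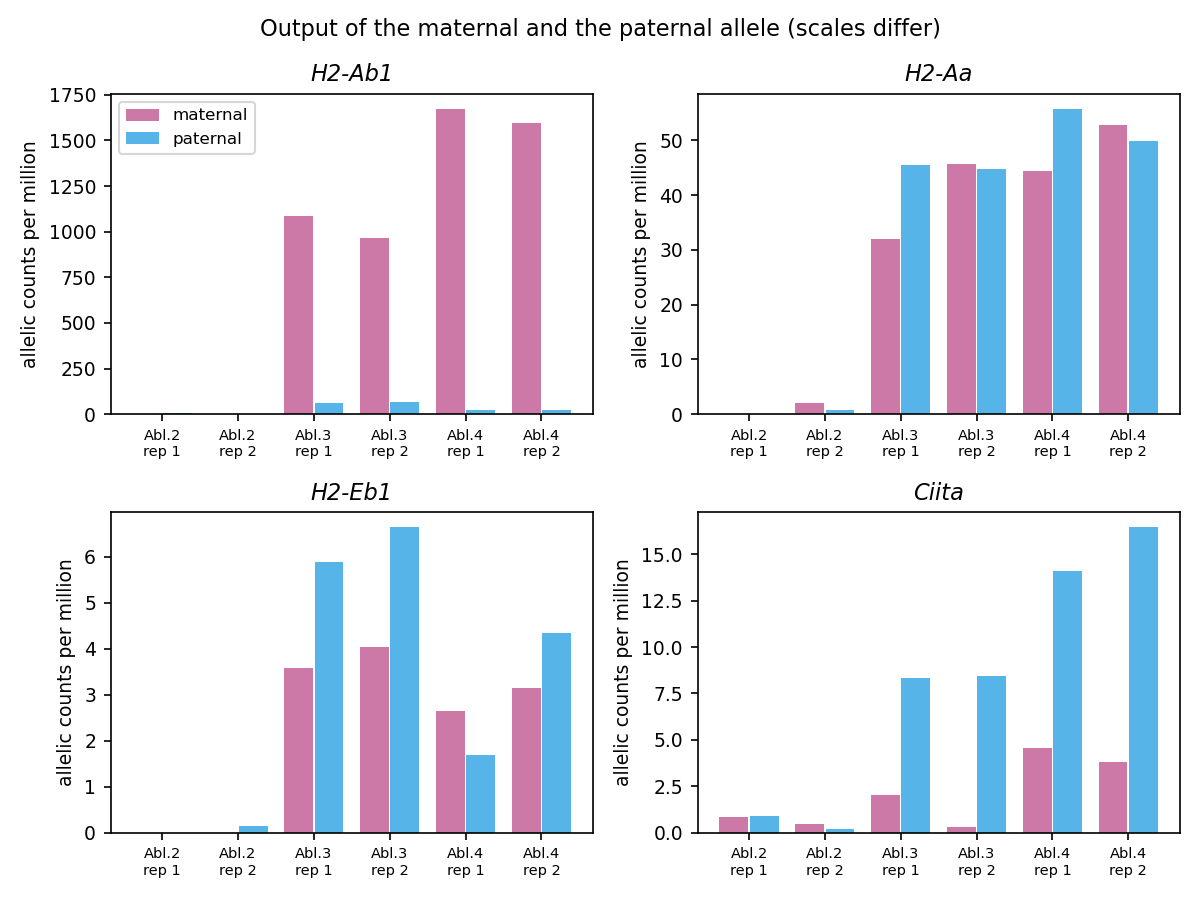
Allelic CPM (counts scaled to all allele counts of a library) from the maternal and the paternal allele of 4 genes in each library, on linear axes from 0 whose scales differ between panels. H2-Ab1 output is maternal in Abl.3 and Abl.4 (964 to 1673 CPM), Ciita output in the same lines is mostly paternal (8.35 to 16.4 CPM), and H2-Aa draws on both alleles there.

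Cd74 was nearly balanced in every line. Its maternal share was 0.548 and 0.568 in Abl.2, 0.543 and 0.565 in Abl.3, and 0.546 and 0.617 in Abl.4, all above 0.5. The log2 ratios were 0.34 ± 0.10, 0.31 ± 0.11 and 0.48 ± 0.11 (SE) in that order, and that of Abl.4 was 0.27 without its replicate 2.

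The H2-DM genes showed skews that varied between clones. H2-DMa shares were 0.481 and 0.485 in Abl.2, 0.527 and 0.494 in Abl.3, and 0.420 and 0.307 in Abl.4. The log2 ratio of Abl.4 was -0.81 ± 0.18 (SE) and became -0.47 without replicate 2. Abl.3 minus Abl.4 was 0.87 ± 0.26, and 0.53 without Abl.4 replicate 2.

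H2-DMb1 shares were 0.633 and 0.783 in Abl.2, 0.559 and 0.401 in Abl.3, and 0.767 and 0.751 in Abl.4. Replicates of Abl.2 and of Abl.3 lay apart by more than their intervals. The log2 ratio was 1.31 ± 0.28 (SE) for Abl.2, -0.11 ± 0.26 for Abl.3 and 1.66 ± 0.32 for Abl.4. The difference was 1.42 ± 0.38 for Abl.2 minus Abl.3 and -1.77 ± 0.41 for Abl.3 minus Abl.4. Without Abl.2 replicate 2 the ratio of Abl.2 was 0.78 and the difference of Abl.2 minus Abl.3 was 0.89. H2-DMb2 shares were 0.488 and 0.379 in Abl.2, 0.658 and 0.614 in Abl.3, and 0.608 and 0.599 in Abl.4. Its log2 ratio in Abl.2 was lower than in Abl.3 by -1.20 ± 0.27 and lower than in Abl.4 by -0.99 ± 0.28. Shared sequence between these paralogs bears on both sets of values.

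The H2-DO genes were skewed to the maternal allele in all lines. H2-Ob had the most uniform share of the members: 0.767 and 0.790 in Abl.2, 0.796 and 0.796 in Abl.3, and 0.801 and 0.792 in Abl.4. Its log2 ratio was 1.81 ± 0.09, 1.96 ± 0.09 and 1.97 ± 0.08 (SE), with differences between lines of -0.15 ± 0.12, -0.15 ± 0.12 and -0.01 ± 0.12. H2-Oa was at 0.965 and 0.946 in Abl.2, 0.700 and 0.738 in Abl.3, and 0.765 and 0.734 in Abl.4. Abl.2, the line with least H2-Oa, thus had the highest maternal share of it. From the paternal allele of H2-Oa came 3 and 7 counts in Abl.2, against 98 and 92 in Abl.3 and 44 and 38 in Abl.4. The log2 ratio of Abl.2 exceeded that of Abl.3 by 2.97 ± 0.44 (SE) and that of Abl.4 by 2.75 ± 0.46.

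Counts of calls are given with no reading, since the rule used these shares. Of the members in the fit, 4 of 7 were called for imbalance in Abl.2 (all genes 49.1%), 5 of 7 in Abl.3 (all genes 45.1%) and 7 of 7 in Abl.4 (all genes 39.9%), by edgeR. All those called were maternal (all genes 24.7%, 22.5% and 19.2%) except H2-DMa in Abl.4, and for the paternal direction the shares of all genes were 24.4%, 22.6% and 20.7%. Differences between lines were called for 4 of 7 in Abl.2 minus Abl.3 (all genes 28.4%), 3 of 7 in Abl.2 minus Abl.4 (all genes 22.3%) and 3 of 7 in Abl.3 minus Abl.4 (all genes 16.5%). On Abl.3 and Abl.4 alone, imbalance was called for 5 of 10 and 8 of 10 (all genes 43.4% and 38.3%), and a difference for 2 of 10 (all genes 15.8%), H2-Ab1 and H2-DMb1. In the fit on all lines, leaving out a library cut the counts of imbalance to 2 in Abl.2 (without its replicate 2), 3 in Abl.3 (without its replicate 1) and 4 in Abl.4 (without its replicate 2). It cut the differences to 2 in Abl.2 minus Abl.3 (without Abl.2 replicate 2) and 1 in Abl.3 minus Abl.4 (without Abl.3 replicate 2).

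**Figure D3:**
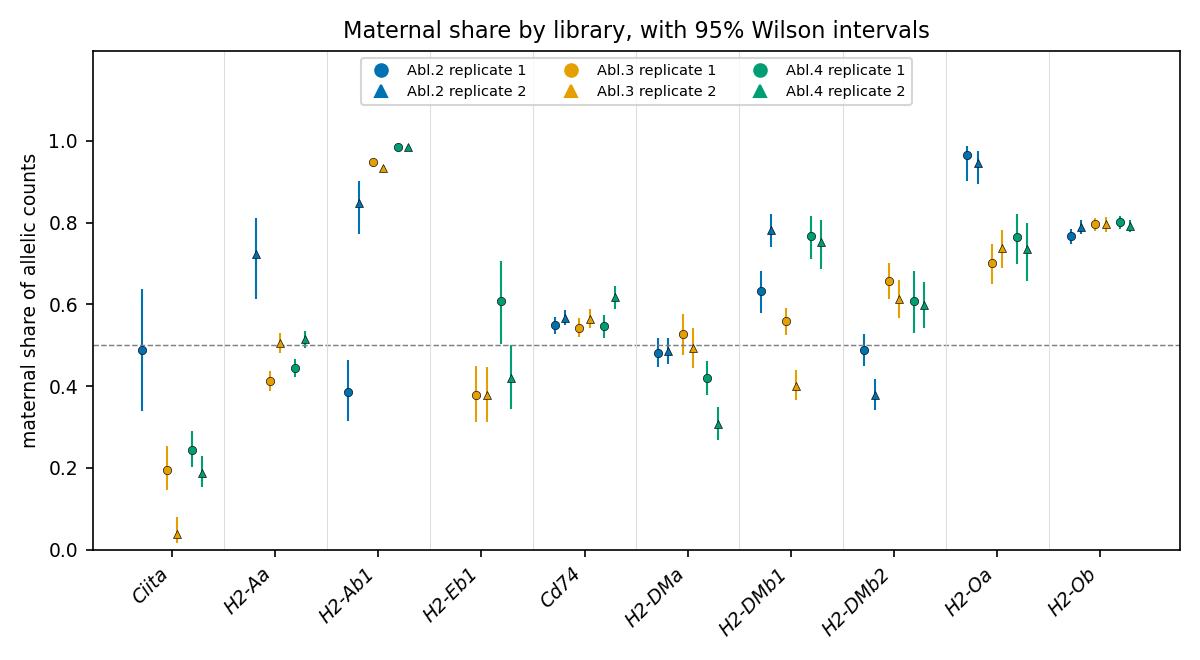
Maternal share of each gene in each library with at least 20 allele counts, with 95% Wilson intervals (counting error only) and a dashed line at 0.5. H2-Ab1 in Abl.3 and Abl.4 and H2-Oa in Abl.2 lie above 0.9, Ciita in Abl.3 and Abl.4 lies below 0.25, and H2-Ob stays near 0.8 in all 3 lines.

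Most of the tested genes around H2-Ab1 lay nearer to balance. Of 89 other genes within 1 Mb of the H2 members, 50 could be tested, and their median maternal share in Abl.2, Abl.3 and Abl.4 was 0.510, 0.553 and 0.499. Shares from 0.3 to 0.7 were found for 47, 43 and 45 of the 50. By edgeR, imbalance was called in Abl.2 for 19 of 50 (38%, beside 49.1% of all genes) and in Abl.4 for 21 of 50 (42%, beside 39.9%). In Abl.3 it was called for 31 of 50 (62%, beside 45.1% of all genes), 27 of them maternal (all genes 22.5%), against 10 maternal in Abl.2 (all genes 24.7%) and 11 in Abl.4 (all genes 19.2%). H2-Aa, the next member on one side, was near balance in Abl.3 and Abl.4, and H2-Ob, the next on the other side, stayed near 0.8. The nearest other gene, Gm20506 at -14.2 kb, had too few counts to be tested and was mostly maternal: its pooled share was 1 in Abl.2 (10 and 12 counts), 1 in Abl.3 (15 and 35 counts) and 0.938 in Abl.4 (27 and 38 counts). H2-Eb2, the class II gene at 62.5 kb, was also untested, with pooled shares of 1 in Abl.2 (6 and 10 counts), 0.705 in Abl.3 (32 and 56 counts) and 0.941 in Abl.4 (40 and 62 counts). Between them in distance, Tap2 and Gm15821 lay at pooled shares of 0.457 to 0.544 in the 3 lines.

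Some neighbours did differ between lines. By edgeR, a difference was called for 11 of 50 in Abl.2 minus Abl.3 (22%, beside 28.4% of all genes), 10 of them lower. It was called for 4 of 50 in Abl.2 minus Abl.4 (8%, beside 22.3%), 2 higher and 2 lower. In Abl.3 minus Abl.4 it was called for 16 of 50 (32%, beside 16.5%), 14 of them higher. H2-Ke6 had mean maternal shares of 0.587, 0.866 and 0.596 in Abl.2, Abl.3 and Abl.4, and Abl.3 differed from Abl.2 (edgeR adjusted p = 1.9e-06) and from Abl.4 (adjusted p = 8.3e-06). Adamts10, a secreted protease gene whose start lies at -739 kb from that of H2-Ab1, was at 0.526, 0.770 and 1 in the same order, with all 3 differences called (adjusted p = 0.0028, 1.7e-06 and 4.1e-05). Tap2, whose start lies at -59.7 kb from that of H2-Ab1, moved little: 0.488 in Abl.2 and 0.545 in Abl.4 (adjusted p = 0.0064). Zfp955a had shares of 0.629, 0.632 and 0.417 (adjusted p = 0.031 and 0.042 against Abl.4), and Lta, the lymphotoxin alpha gene, was at 0.651 in Abl.2 and 0.819 in Abl.3 (adjusted p = 0.028).

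**Figure D4:**
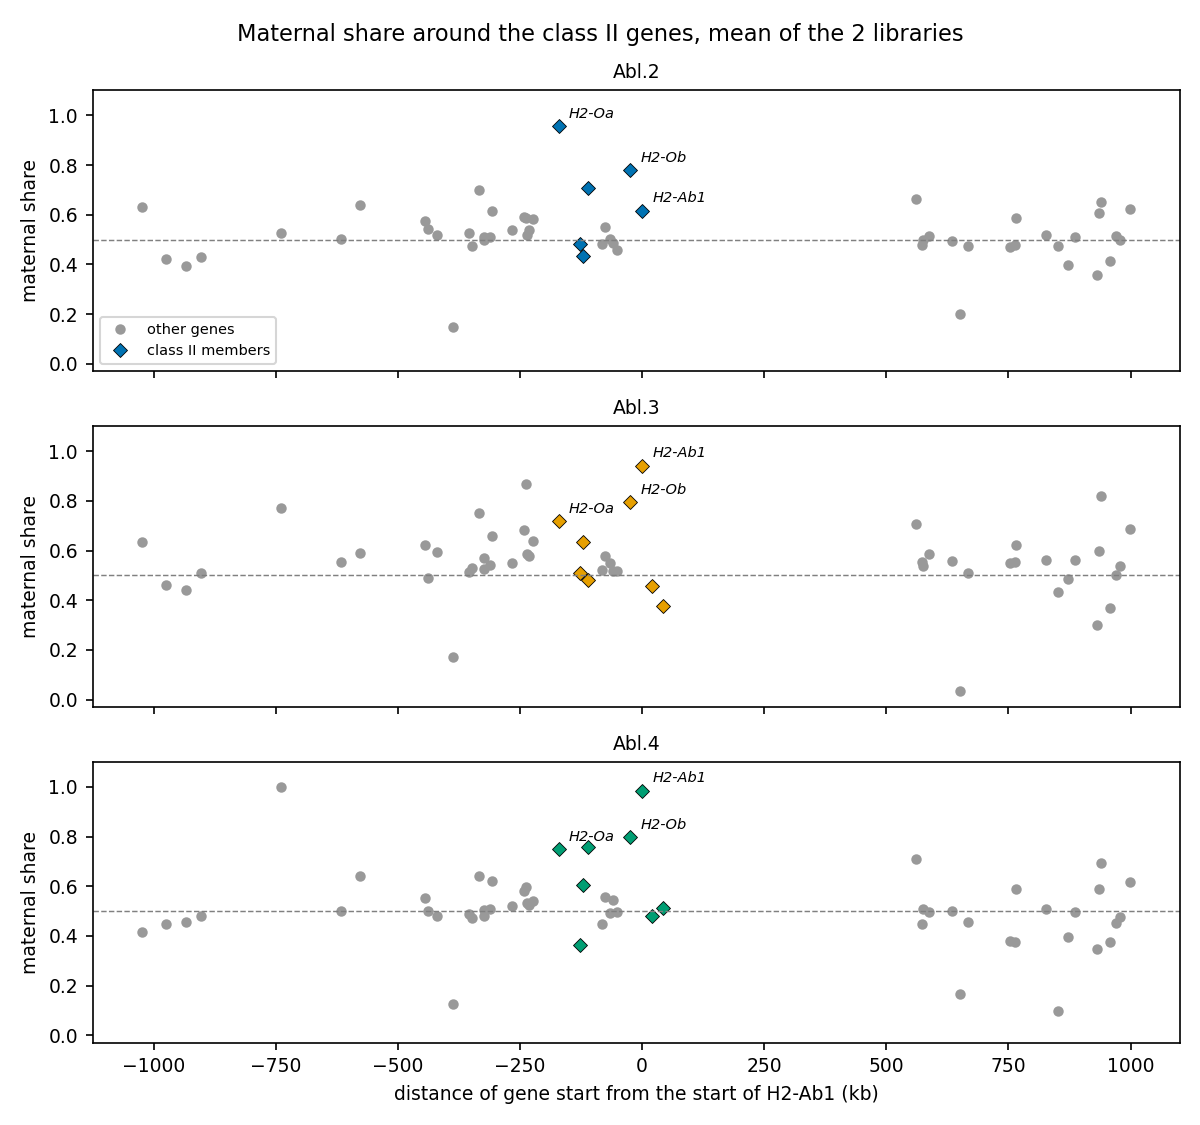
Mean maternal share of the 2 libraries for the class II members (coloured diamonds) and the 50 other tested genes within 1 Mb (grey circles), against the distance of the gene start from that of H2-Ab1, in 1 panel per line. H2-Ab1 stands at 0.941 in Abl.3 and 0.985 in Abl.4, while most of the grey circles lie between 0.3 and 0.7.

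The factors that bind class II promoters were present in all lines. Of 7 such genes, 1 was higher and 1 lower in Abl.2 than in Abl.3 by limma (all genes 39.8% called), and 0 of 7 were called by limma in either comparison with Abl.4 (all genes 33.5% and 38.1%). At an unadjusted p under 0.05, 0 of 7 passed for Abl.2 against Abl.4 and 2 of 7 for Abl.3 against Abl.4. After adjustment, edgeR on the summed allelic counts called 1 of 6 and 3 of 6. For Abl.2 minus Abl.4 this was Rfxank, higher by 0.37, whereas limma on TPM put it at -0.18, the opposite sign. For Abl.3 minus Abl.4 these were Rfxank (0.66) and Nfya (0.41), both higher, and Creb1, lower (-0.59). For Abl.2 minus Abl.3, edgeR on these counts called 2 of 6, Creb1 higher (0.64, adjusted p = 0.0061) and Nfya lower. In Abl.3 minus Abl.4, limma with a replicate block or with a minimum of 5 TPM called 2 of 7, Rfx5 lower and Nfya higher. Rfx5, the RFX subunit that binds DNA, stood at 18.5 and 17.2 TPM in Abl.2, 12.9 and 12.9 TPM in Abl.3, and 19.5 and 15.5 TPM in Abl.4, and was higher in Abl.2 than in Abl.3 by 0.44 ± 0.13 (SE, adjusted p = 0.038). That call was lost with quantile normalisation, without the filter on low values and without any 1 library of either line. Nfya, an NF-Y subunit, stood at 15.9 and 17.6 TPM in Abl.2, 23.6 and 26.7 TPM in Abl.3, and 17.0 and 20.8 TPM in Abl.4, a difference of -0.56 ± 0.13 for Abl.2 minus Abl.3 (adjusted p = 0.017), lost without either Abl.2 library or Abl.3 replicate 2. The RFX subunits Rfxap (27.5 to 35.7 TPM) and Rfxank (4.91 to 6.96 TPM), Creb1 (5.85 to 8.24 TPM), Nfyb (33.8 to 43.2 TPM) and Nfyc (90.2 to 111 TPM) were not called by limma in any pair. The median difference of the list was 0.09, -0.07 and -0.07 in log2(TPM + 1).

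Regulators that act on Ciita in B cells were called in both directions. Of 10, 7 were higher and 0 lower in Abl.2 than in Abl.3 by limma (all genes 25.9% and 14%), but only 4 were higher without either Abl.2 library or without Abl.3 replicate 2, the 3 lost being Irf4, Foxo1 and Ebf1 each time. Summed allele counts in edgeR, which covered 9 of these genes, gave 5 higher and 2 lower. Of the same 10, 3 were higher and 1 lower in Abl.2 than in Abl.4 (all genes 15% and 18.4%), and 2 in all were called without Abl.2 replicate 1, while summed allele counts gave 1 higher and 2 lower. In Abl.3 minus Abl.4, 0 were higher and 6 lower (all genes 11.3% and 26.8%). Pax5, the B-lineage identity factor, stood at 246 and 207 TPM in Abl.2, 56.2 and 64.0 TPM in Abl.3, and 156 and 165 TPM in Abl.4. It was thus highest in the line with the least Ciita, by 1.89 ± 0.11 (SE, limma adjusted p = 6.5e-05) over Abl.3 and 0.49 ± 0.11 (adjusted p = 0.018) over Abl.4. The smaller of these was not called without Abl.2 replicate 1, without either Abl.4 library or with summed allele counts. Irf8 had 212 and 202 TPM in Abl.2, 251 and 218 TPM in Abl.3, and 489 and 417 TPM in Abl.4, and was lower in Abl.2 than in Abl.4 by -1.12 ± 0.11 (adjusted p = 5.3e-04). Prdm1, a known repressor of Ciita, was at 15.4 and 15.1 TPM in Abl.2, 5.97 and 5.19 TPM in Abl.3, and 12.47 and 11.8 TPM in Abl.4, higher in Abl.2 than in Abl.3 by 1.31 ± 0.12 (adjusted p = 3.9e-04). Bcl6 was also higher in Abl.2 than in Abl.3, by 0.97 ± 0.17 (adjusted p = 0.0055), and Tcf3 was higher in Abl.2 than in Abl.4, by 0.70 ± 0.11 (adjusted p = 0.0038). Spi1, which encodes PU.1 (92.4 to 126 TPM), was not called in any pair by the limma fit. For Abl.2 minus Abl.3, summed allele counts in edgeR called both Spi1 (-0.44, adjusted p = 0.0060) and Irf8 (-0.46, adjusted p = 0.0027) lower, and limma called Spi1 lower with quantile normalisation (-0.34, adjusted p = 0.0496) and with a replicate block (-0.27, adjusted p = 0.045). In edgeR Spi1 was also lower in Abl.2 than in Abl.4, by -0.31 (adjusted p = 0.035). The list's median difference was 0.33, 0.05 and -0.45.

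In the interferon gamma route, which induces Ciita in many cell types, 4 of 9 genes were higher and 0 lower in Abl.2 than in Abl.3 by limma (all genes 25.9% and 14%). Against Abl.4, 3 were higher and 2 lower in Abl.2 (all genes 15% and 18.4%), and in Abl.3 minus Abl.4 1 was higher and 3 lower (all genes 11.3% and 26.8%). The 5 calls of Abl.2 minus Abl.4 became 3 without Abl.2 replicate 2. Summed allele counts, which covered 7 of the genes, gave 3 higher and 1 lower, 2 higher and 1 lower, and 3 higher and 3 lower in these pairs, and a replicate block turned the last pair into 3 higher and 4 lower. Irf1 stood at 576 and 575 TPM in Abl.2, 269 and 247 TPM in Abl.3, and 236 and 217 TPM in Abl.4, higher in Abl.2 by 1.16 ± 0.08 (SE, limma adjusted p = 1.2e-04) and 1.34 ± 0.08 (adjusted p = 6.9e-05). Socs1, the feedback inhibitor of JAK kinases, stood at 179 and 154 TPM in Abl.2, 132 and 130.3 TPM in Abl.3, and 46.1 and 32.8 TPM in Abl.4 (Abl.2 minus Abl.4 2.07 ± 0.16, adjusted p = 2.2e-04). Abl.3 was the low line for the kinases: Jak1 was 0.91 ± 0.07 higher in Abl.2 (adjusted p = 2.2e-04) and Jak2 was 0.77 ± 0.10 higher in Abl.2 (adjusted p = 0.0020). Both were also lower in Abl.3 than in Abl.4, by -1.10 ± 0.07 (adjusted p = 1.2e-04) and -0.71 ± 0.10 (adjusted p = 0.0032). The median difference of the list was 0.34, 0.06 and -0.20.

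Of 12 coactivators and chromatin enzymes, 6 were higher and 2 lower in Abl.2 than in Abl.3 by limma (all genes 25.9% and 14%), 1 higher and 1 lower in Abl.2 than in Abl.4 (all genes 15% and 18.4%), and 0 higher and 6 lower in Abl.3 than in Abl.4 (all genes 11.3% and 26.8%). The first pair had 5 calls without Abl.2 replicate 2, 4 without Abl.3 replicate 2, and 3 higher and 2 lower with summed allele counts. The second had 1 call without Abl.2 replicate 1 and, with a replicate block, 1 higher and 5 lower. The last had 3 calls without Abl.3 replicate 1 or with quantile normalisation, and 1 higher and 3 lower with summed allele counts. Kat2b, an acetyltransferase, had 2.69 and 2.82 TPM in Abl.2, 4.95 and 5.66 TPM in Abl.3, and 5.47 and 5.12 TPM in Abl.4, lower in Abl.2 by -0.75 ± 0.14 (SE, limma adjusted p = 0.0070) and -0.75 ± 0.14 (adjusted p = 0.0081). The first call was lost with summed allele counts and without Abl.3 replicate 2, and the second without Abl.2 replicate 1. The DNA methyltransferase Dnmt3b was higher in Abl.2 than in Abl.3 by 0.97 ± 0.12 (adjusted p = 0.0013) and lower in Abl.3 than in Abl.4 by -0.90 ± 0.12 (adjusted p = 0.0022). Ep300, Hdac2 and Smarca4 were the others with the largest called changes of a pair: 0.76 ± 0.15 for Ep300 in Abl.2 minus Abl.3 (adjusted p = 0.0090; lost without Abl.2 replicate 2 or Abl.3 replicate 2), 0.59 ± 0.10 for Hdac2 in Abl.2 minus Abl.4 (adjusted p = 0.0045) and -0.66 ± 0.08 for Smarca4 in Abl.3 minus Abl.4 (adjusted p = 0.0012). The medians were 0.34, -0.12 and -0.42.

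Among genes of class II processing and turnover, 11 of 14 were expressed enough to be tested. Of these, 1 was higher and 3 lower in Abl.2 than in Abl.3 by limma (all genes 25.9% and 14%), 0 higher and 5 lower in Abl.2 than in Abl.4 (all genes 15% and 18.4%), and 0 higher and 6 lower in Abl.3 than in Abl.4 (all genes 11.3% and 26.8%). With a replicate block the first pair had 5 higher and 3 lower. Ctsh, a lysosomal protease, stood at 1.79 and 1.45 TPM in Abl.2, 18.5 and 16.7 TPM in Abl.3, and 97.9 and 83.9 TPM in Abl.4. Its difference was -2.83 ± 0.13 (SE, limma adjusted p = 2.5e-05) for Abl.2 minus Abl.3, -5.13 ± 0.13 (adjusted p = 3.5e-06) for Abl.2 minus Abl.4 and -2.30 ± 0.13 (adjusted p = 6.9e-05) for Abl.3 minus Abl.4. Ifi30, the lysosomal thiol reductase that unfolds antigens, stood at 6.97 and 8.38 TPM in Abl.2, 58.7 and 56.4 TPM in Abl.3, and 110.3 and 111 TPM in Abl.4, lower in Abl.2 by -2.76 ± 0.10 (adjusted p = 1.2e-05) and -3.69 ± 0.10 (adjusted p = 5.6e-06). Ctss, the protease that trims Cd74, stood at 83.4 and 82.2 TPM in Abl.2, 122 and 109.6 TPM in Abl.3, and 134 and 133 TPM in Abl.4. It was lower in Abl.2 by -0.48 ± 0.08 than in Abl.3 (adjusted p = 0.0047) and by -0.68 ± 0.08 than in Abl.4 (adjusted p = 0.0013), and Abl.3 minus Abl.4 was -0.20 ± 0.08 (adjusted p = 0.091, and 0.0498 with a replicate block). In mean TPM, Ctsh, Ifi30 and Ctss were lowest in Abl.2 and highest in Abl.4, as were Ciita, H2-Aa, H2-Ab1 and H2-Ob. Genes of other lists had that order too, among them Irf8, and the share of all genes with it was not counted. Ctss was named after its values were seen. The step from Abl.3 to Abl.4 was not called for Ctss in the main fit and was small against its error for H2-Aa. Whether the order is shared was not tested.

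Other processing genes had another order. Ctsb and Lgmn, proteases of the endosome, were high in Abl.4: Ctsb was lower by -1.02 ± 0.09 in Abl.2 (SE, limma adjusted p = 3.4e-04) and by -1.21 ± 0.09 in Abl.3 (adjusted p = 1.9e-04), and Lgmn by -1.12 ± 0.09 in Abl.3 (adjusted p = 3.2e-04). March8, a ubiquitin ligase listed by the authors under a date and matched by its identifier, was higher in Abl.2 than in Abl.3 by 0.60 ± 0.15 (adjusted p = 0.021), a call lost with quantile normalisation, without the filter on low values and without any 1 library of either line. H2-Eb2 (0.1 to 1.09 TPM) and H2-Pb (0 to 0.4 TPM) were too low for limma. H2-Eb2 was covered by edgeR on summed allele counts, where it was lower in Abl.2 than in Abl.3 by -2.82 and than in Abl.4 by -2.94. With 6 and 10 counts in Abl.2, it passed the count filter only through Abl.3 and Abl.4, so no p-value is given. H2-Ea-ps was called by limma in every pair, but it was at 0 TPM in both Abl.2 libraries. It passed the filter on low values only through Abl.3 and Abl.4. Its differences of -3.17 ± 0.15 for Abl.2 minus Abl.3 and -2.14 ± 0.15 for Abl.2 minus Abl.4 depend on the pseudocount. They are no exact size, and nothing is read from those calls. Abl.3 minus Abl.4 was 1.03 ± 0.15 (limma adjusted p = 0.0035). Over all lists, 26, 17 and 23 of 50 tested genes were called (52%, 34% and 46%) beside 39.8%, 33.5% and 38.1% of all genes. The first of these counts was 16 without Abl.2 replicate 2 and 15 without Abl.3 replicate 2.

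**Figure D5:**
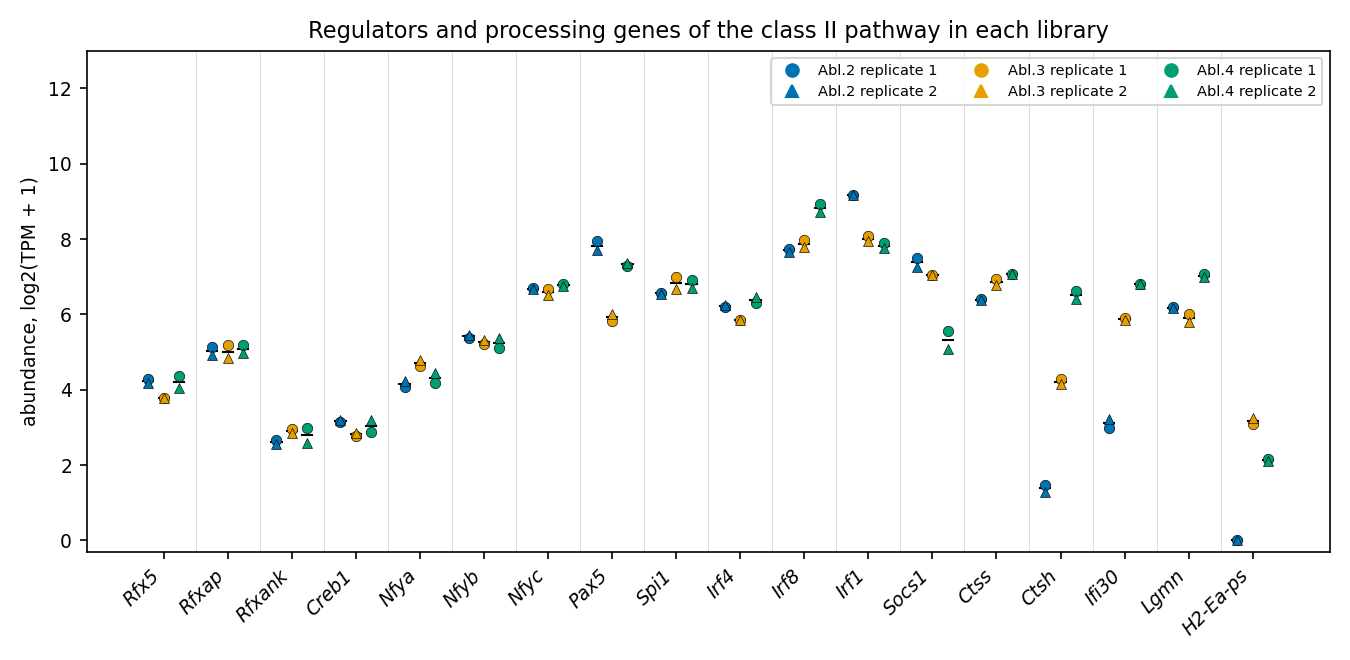
Abundance of 18 genes of the class II pathway in each library as log2(TPM + 1), with colours for lines, circles and triangles for replicates 1 and 2, and a black bar at the mean. The promoter factors from Rfx5 to Nfyc are present in all lines, while Ctsh, Ifi30 and H2-Ea-ps are lowest in Abl.2.

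The transcript profiles most like that of H2-Ab1 over the 6 libraries, by Euclidean distance between log2(TPM + 1) profiles centred on their means, were Slc16a3 (distance 0.68), Gm4735 (0.90), Cox6a2 (1.39), Gm8172 (1.55) and Dap (1.75). Slc16a3, a lactate transporter gene, had 0.17 and 0.78 TPM in Abl.2, 93.6 and 83.5 TPM in Abl.3, and 190.3 and 159.8 TPM in Abl.4. All of them lie on other chromosomes than H2-Ab1, and all were near 0 or low in Abl.2. H2-Aa was the closest member to H2-Ab1, at a distance of 3.80, followed by H2-Eb1 at 4.85, and the others lay from 6.57 (Ciita) to 8.94 (H2-DMb2). Nearest to Ciita were Rbpms2 (0.19), Ece1 (0.22), St3gal5 (0.22), Abca3 (0.23) and Ctnnbip1 (0.26), each lowest in Abl.2 and highest in Abl.4. These distances describe 6 libraries of 3 clones and carry no test.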

How the data were processed

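RNA-seq of 3 clonal lines with 2 library preparations each was used from the tables the authors deposited. TPM per gene and library were made by the authors with DESeq2, per the file headers. Whole-number counts per allele were taken by the authors at SNP positions, per the file headers, and it is not stated whether a read over several SNPs counts once. A further deposited table gives, for each line, the maternal fraction of allele counts and its limits, made by the authors from averaged replicates, per the file headers. The submitters' processing notes name STAR 2.5.4a, SAMtools, GATK and DESeq2 and the builds GRCm38, mm10 and GRCh37, without roles. Coordinates are those of the deposited tables. Depth behind TPM is unknown.

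Groups are the lines named in the labels. Abundance was tested with limma 3.58.1 (trend) on log2(TPM + 1) in all 6 libraries, keeping genes whose mean reached 1 TPM. The design had allowed for counts or normalised values, and the table holds TPM. For allele counts the test was edgeR 4.0.16 (quasi-likelihood, R 4.3.3) with library intercepts and an allele effect for each line, for genes with at least 20 counts in each library; DESeq2 1.42.0 was an alternative. Adjusted p-values are Benjamini-Hochberg values with a threshold of 0.05. Both procedures were tested on simulated data. Of the columns of per-sample values, 0 were left unused.

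The members, pathway lists and tests were chosen with earlier results of these data known. Named were the 10 members, all promoter factors, the 3 called genes of every other list with the largest change per pair, the 5 nearest profiles to H2-Ab1 and to Ciita, and the 3 neighbours with the largest called difference of share per pair. Genes named beyond these (Spi1, Ctss, H2-Eb2, H2-Pb, Gm20506, Gm15821, and overlapping genes) were added after their values were seen. The cell-type markers named singly also fall outside this rule. For 1 gene that this rule names, the result is not reported here. Alternatives were another pseudocount, other filters and coverage minimums, quantile normalisation, summed allele counts, TMM factors, DESeq2, a replicate block, a minimum change, and leaving out each library.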

Additional observations from a re-analysis of the deposited data

Results flagged for a closer look

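The members were chosen with their maternal shares known, so the values here are descriptions and support nothing by themselves. In 10 comparisons of a member between lines, edgeR's fit put allele use apart. Each is given as the difference of the log2 maternal to paternal ratio with its SE. That SE comes from the fit to 2 libraries a line, with a spread shared by the lines. For Abl.2 minus Abl.3 these were H2-Oa (2.97 ± 0.44), H2-DMb1 (1.42 ± 0.38), H2-DMb2 (-1.20 ± 0.27) and H2-Ab1 (-3.51 ± 0.57). For Abl.2 minus Abl.4 they were H2-Oa (2.75 ± 0.46), H2-DMb2 (-0.99 ± 0.28) and H2-Ab1 (-5.53 ± 0.63). For Abl.3 minus Abl.4 they were H2-DMa (0.87 ± 0.26), H2-DMb1 (-1.77 ± 0.41) and H2-Ab1 (-2.02 ± 0.25). The H2-Ab1 values of Abl.2 rest on 158 and 118 counts that point to opposite alleles, and those of H2-Oa in Abl.2 on 85 and 130 counts. The separation of Abl.3 and Abl.4 in H2-DMa was lost under 7 of 13 alternatives, among them DESeq2, the fit on Abl.3 and Abl.4 alone, and leaving out Abl.4 replicate 2, where the value was 0.53. That of H2-DMb2 in Abl.2 minus Abl.4 was lost under 4 of 12, the pairs of H2-DMb1 and the other pair of H2-DMb2 under 2 each, H2-Ab1 in Abl.3 minus Abl.4 under DESeq2, and the rest under 0 of 12. Leaving out Abl.2 replicate 1 moved the H2-Ab1 values to -1.55 and -3.57, and leaving out Abl.2 replicate 2 moved H2-DMb1 in Abl.2 minus Abl.3 to 0.89. With 2 libraries a line, no search for outlying libraries was made.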

How the results depend on the processing

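Counts of members called are descriptions here too. Members kept their direction in abundance under every alternative run. A minimum log2 change of 1 cut the called genes to 1160, 1107 and 1042 (Abl.2 minus Abl.3, Abl.2 minus Abl.4, Abl.3 minus Abl.4, in that order throughout), the members to 4, 4 and 0, and the listed genes to 6, 7 and 7, by construction. With a pseudocount of 0.1, 5 members were called in Abl.3 minus Abl.4; with no coverage minimum, 5 differed in allele use in Abl.2 minus Abl.4; with DESeq2, 1 did in Abl.3 minus Abl.4. Leaving out single libraries gave 4 to 8, 7 to 8 and 3 to 8 members called in abundance, 15 to 28, 13 to 17 and 17 to 25 listed genes, and 2529 to 4565, 2040 to 3269 and 2336 to 3659 genes. It gave 2 to 5, 3 to 6 and 4 to 8 members imbalanced in Abl.2, Abl.3 and Abl.4 and 2 to 5, 2 to 3 and 1 to 2 differing between lines, with 3209 to 4454, 2739 to 4116 and 2761 to 3418 genes imbalanced and 2063 to 2612, 1646 to 1920 and 1039 to 1326 differing. A line left with 1 library is assumed to vary like the others. Log2 allele ratios changed sign as follows: with TMM factors, Cd74 in Abl.2 minus Abl.3 (-0.042) and H2-Ob in Abl.3 minus Abl.4 (0.023); without a library, H2-Ab1 in Abl.2 (-0.67 to 2.46), Cd74 in Abl.2 minus Abl.3 (-0.041 to 0.088), Abl.2 minus Abl.4 (-0.35 to 0.072) and Abl.3 minus Abl.4 (-0.38 to 0.047), H2-DMa in Abl.3 (-0.037 to 0.15), H2-DMb1 in Abl.3 (-0.58 to 0.34) and in Abl.2 minus Abl.4 (-0.87 to 0.19), and H2-Ob in Abl.3 minus Abl.4 (-0.044 to 0.032). The cause was not tested.

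Replicate numbers 1 and 2 are shared by the lines but nothing in the labels ties them, and deviations of same-numbered libraries correlated at 0.10, 0.19 and 0.16 in abundance and at 0.0066, -0.037 and 0.029 in allele ratios. With a replicate block, 9, 8 and 9 members, 33, 23 and 33 listed genes and 5213, 4608 and 5184 genes were called in abundance; imbalance was called for 4, 5 and 7 members (4208, 3826 and 3364 genes) and a difference for 4, 3 and 3 members (2404, 1894 and 1343 genes). The depth behind TPM is unknown, and H2-Aa, H2-Eb1 and Ciita have too few allele counts in Abl.2 for a share with useful precision.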
